A study of Mus musculus with 8 samples.

Results

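The genes described here are 6 regulators of cartilage formation, Sox9, Sox5, Sox6, Nkx3-2, Trps1 and Wwp2, in mouse bone marrow mesenchymal stem cells (MSCs). They were taken by gene symbol, 1 entry each, from the 47643 named genes of the deposited expression table, and their N6-methyladenosine (m6A) peaks were those of a list of 10160 whose summit lay within the gene.

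The cells were primary marrow cultures from the hindlimb long bones of mice labelled C57BL/6 (C57BL6/J for the floxed line in the study's methods), and all had 2 days of osteogenic induction (dexamethasone at 100 nM, ascorbic acid at 50 µg/ml, β-glycerophosphate at 5 mM). RNA-seq compared 2 libraries labelled wild type (WT), which the study's methods give as Mettl3fl/fl littermates, with 2 labelled cKO, the conditional knockout Prx1-Cre;Mettl3fl/fl. Mettl3 is the catalytic subunit of the m6A methyltransferase, its exons 2 and 3 are floxed in both groups, and Prx1-Cre is active from the early limb bud mesenchyme onward. MeRIP-Seq, which immunoprecipitates methylated RNA fragments, comprised 2 inputs and 2 m6A immunoprecipitates of MSCs labelled wild type. The age of the donor mice, and whether a library came from 1 mouse or several, are not given in the sources used here.

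SOX9 is the transcription factor that commits mesenchymal cells to the chondrocyte lineage, and SOX5 and SOX6 lack a transactivation domain of their own and help SOX9 to activate cartilage matrix genes such as Col2a1 and Acan. NKX3-2 (BAPX1) is a homeodomain repressor that holds back chondrocyte hypertrophy, and TRPS1 is a GATA-type zinc finger repressor of the growth plate. WWP2 is a ubiquitin ligase of the NEDD4 family that is bound by SOX9, and its gene hosts the cartilage microRNA miR-140. m6A is a common internal mark of messenger RNA, is often placed near the stop codon, and can alter the stability and translation of a transcript.

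The 4 RNA-seq libraries held 23978099 to 34106693 counts. Mettl3 itself stood at 17.6 and 16.9 counts scaled to library size (counts per 1e6, CPM) in the WT libraries and at 17.5 and 16.3 CPM in the cKO libraries (log2 fold change −0.03, SE 0.0929, adjusted p = 0.824). Counts per gene include the exons outside the deleted part, so this value does not check the deletion, and WT and cKO stand here for the labels. The cKO libraries lay closer to each other (biological coefficient of variation 1.91%) than the WT libraries did (12.3%). Nothing in the labels says that the 2 libraries of a group came from separate mice or cultures, so p-values measure only the spread between these libraries, which may be technical. Unless another tool is named, adjusted p-values are from the two-sided quasi-likelihood test of edgeR, Benjamini-Hochberg adjusted over 15327 genes, and a gene is called at an adjusted p under 0.05.

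All 6 regulators were tested, and all 6 were lower in the cKO libraries. For comparison, 30.5% of all genes tested were called, 16.8% lower and 13.7% higher, and the median log2 fold change of all genes tested was 0.00. Each regulator was lower in both cKO libraries than in both WT libraries, as were 35.0% of all genes tested. The 6 were chosen with earlier results of these data known, so these shares describe them and do not test them as a set. On the count scale the size of the fall ran from 1.29-fold for Trps1 to 24.7-fold for Sox6, whereas on the TPM scale Sox5 had the smallest difference (limma, log2 fold change −0.25 against −0.31 for Trps1). Among all genes tested, Sox6 had the 93rd largest fall, Sox9 the 473rd, Nkx3-2 the 675th, Sox5 the 1353rd, Wwp2 the 1425th and Trps1 the 3013th. In bulk RNA, fewer cells of a type that expresses a gene and less of its RNA per cell cannot be told apart.

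**Figure D1:**
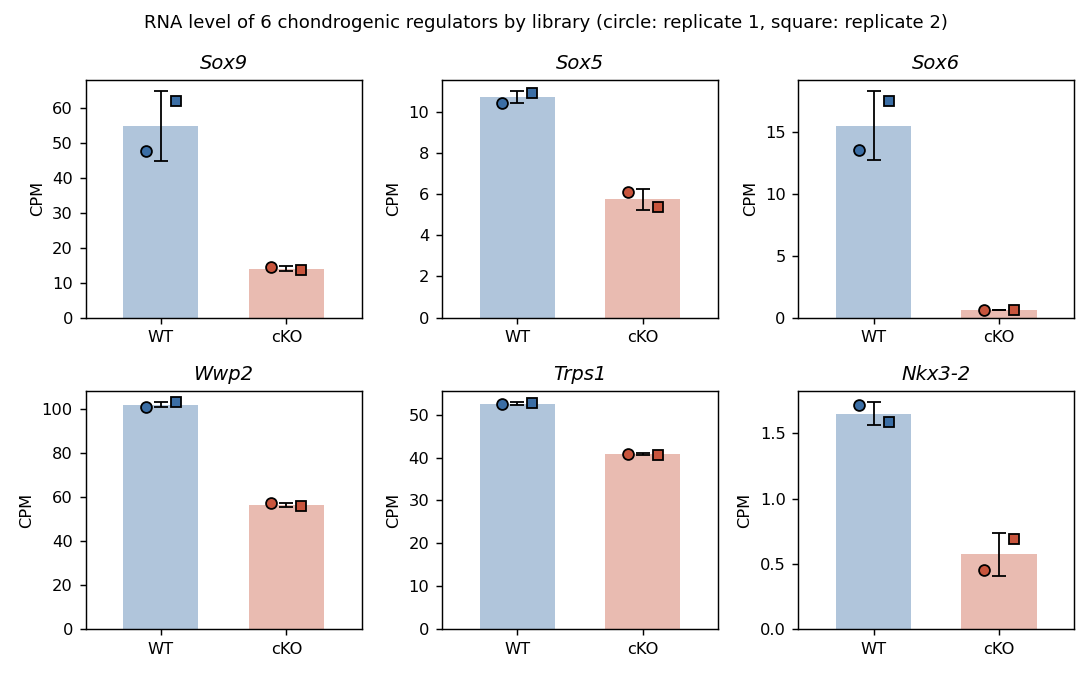
RNA level in CPM of each regulator in the 2 WT (blue) and 2 cKO (red) libraries. Bars are means, error bars are 1 SD, circles are replicate 1 and squares replicate 2, and in each panel both red points lie below both blue points.

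Sox9 (ENSMUSG00000000567, GRCm38 chromosome 11, plus strand, 112782224 to 112787760), the factor that commits cells to the chondrocyte lineage, had 1614 and 1748 counts in the WT libraries and 350 and 431 in the cKO libraries. These counts equal 47.7 and 61.8 CPM against 14.4 and 13.5 CPM. The WT libraries differed from each other by 1.30-fold, less than the gap between the groups, and the groups did not overlap. The mean fell from 54.8 ± 9.97 CPM (SD, n = 2) to 14.0 ± 0.652 CPM (SD, n = 2), a 3.92-fold difference (95% interval 3.11 to 4.94) with a log2 fold change of −1.97 (SE 0.138, adjusted p = 0.000217).

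Sox6 (ENSMUSG00000051910, chromosome 7, minus strand, 115470872 to 116038796) showed the largest difference of the 6. It had 458 and 494 counts in the WT libraries and 15 and 20 counts in the cKO libraries, or 13.5 and 17.5 CPM against 0.619 and 0.628 CPM. The gene was thus still detected in both cKO libraries, at a low count. The difference was 24.7-fold (95% interval 17.1 to 35.6), with a log2 fold change of −4.62 (SE 0.219, adjusted p = 4.69e-05). On the deposited TPM scale, which adjusts for transcript length, Sox6 was at 3.77 and 5.22 TPM against 0.16 and 0.72 TPM, and the size depended on the unit, with a log2 fold change of −3.30 (limma, adjusted p = 0.0218) that lies nearer 0 than the interval from counts. The antisense gene Sox6os had 2 and 5 counts in the WT libraries and 0 in both others, and since the strand setting of the counting is not given, reads of Sox6 and Sox6os may not be separable.

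Sox5 (ENSMUSG00000041540, chromosome 6, minus strand, 143828425 to 144781977), the close relative and partner of Sox6, fell much less than Sox6. Its counts were 353 and 307 in the WT and 148 and 171 in the cKO libraries, which is 10.4 and 10.9 CPM against 6.11 and 5.37 CPM. The second library of a group stood at 1.05 times the first in WT and 0.879 times in cKO, and the groups did not overlap. The fall was 1.86-fold (95% interval 1.50 to 2.31), with a log2 fold change of −0.90 (SE 0.128, adjusted p = 0.00368). The deposited length-adjusted values were closer together, at 2.41 and 2.70 TPM against 2.24 and 2.02 TPM, and on that scale the difference was not called (limma, log2 fold change −0.25, adjusted p = 0.357). Size and call for Sox5 thus depended on the unit, while the direction was the same in both.

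Nkx3-2 (ENSMUSG00000049691, chromosome 5, minus strand, 41761483 to 41764501), the homeodomain repressor, was the least abundant of the 6 in the WT libraries. It had 58 and 45 counts there, and 11 and 22 counts in the cKO libraries. Its levels were 1.72 and 1.59 CPM against 0.454 and 0.690 CPM, so the cKO libraries differed from each other by 1.52-fold but stayed below both controls. The fall was 2.83-fold (95% interval 1.62 to 4.96), with a log2 fold change of −1.50 (SE 0.335, adjusted p = 0.0184). The call did not hold without cKO replicate 1 (−1.25, adjusted p = 0.146), without cKO replicate 2 (−1.85, adjusted p = 0.0611), or with DESeq2 (−1.51, adjusted p = 0.0579).

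Trps1 (ENSMUSG00000038679, chromosome 15, minus strand, 50654752 to 50890463), the GATA-type repressor, showed the smallest fall of the 6 on the count scale. Its counts were 1772 and 1492 in the WT and 992 and 1293 in the cKO libraries. At 52.4 and 52.8 CPM against 40.9 and 40.6 CPM, replicates were within 1.01-fold of each other and the groups did not overlap. The fall was 1.29-fold (95% interval 1.16 to 1.44), with a log2 fold change of −0.37 (SE 0.0642, adjusted p = 0.00772). The size held at −0.37 and −0.36 without cKO replicate 1 or 2, but the call did not (adjusted p = 0.124 and 0.139), nor did it on the TPM scale (limma, −0.31, adjusted p = 0.112).

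Wwp2 (ENSMUSG00000031930, chromosome 8, plus strand, 107436398 to 107558594), the ubiquitin ligase, was the most abundant of the 6 in either group. It had 3422 and 2900 counts in the WT libraries and 1385 and 1782 in the cKO libraries. Its CPM values of 101 and 103 against 57.2 and 55.9 again left a gap far wider than the replicate spread. The fall was 1.80-fold (95% interval 1.63 to 1.99), with a log2 fold change of −0.85 (SE 0.0589, adjusted p = 0.000209). Mir140, the microRNA gene inside Wwp2, had 0 counts in all 4 libraries, which were made from poly(A)-selected RNA.

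**Figure D2:**
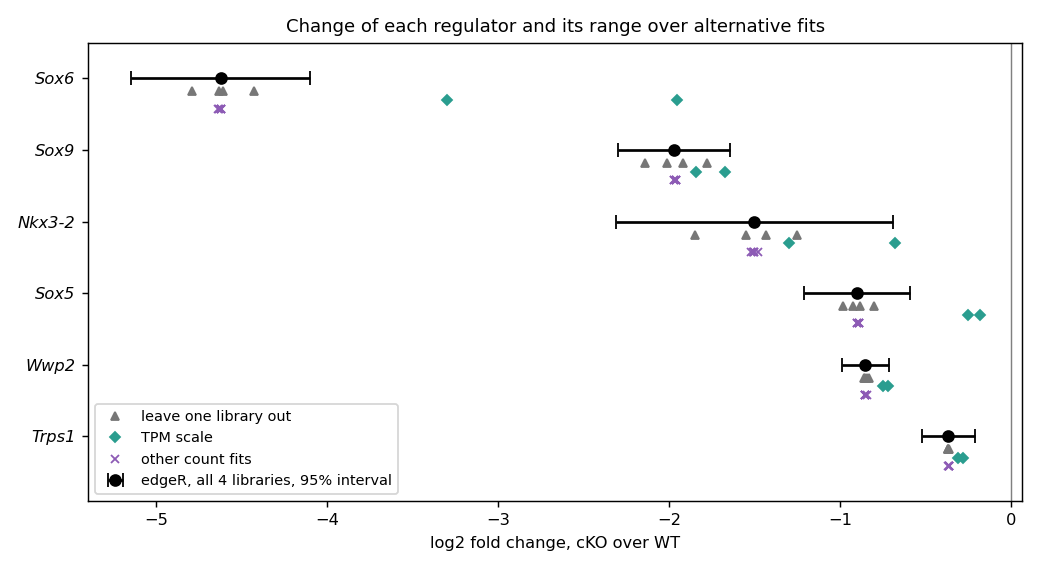
Log2 fold change of each regulator, cKO over WT, with the 95% interval of the edgeR fit on all 4 libraries (black) and the values of fits that left out 1 library (grey triangles), used TPM (green diamonds) or used other count settings (purple crosses). Every value lies below 0, and both TPM values of Sox5 and of Sox6 lie nearer 0 than their intervals.

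An ordinary linear model on log2(TPM + 1), the kind of fit that the study's own tool makes, kept all 6 directions and called none of the 6, with adjusted p from 0.0513 for Wwp2 to 0.301 for Sox5. On that scale, which understates the change of low genes, the log2 fold changes of Sox6, Nkx3-2 and Sox5 were −1.95, −0.68 and −0.18. That model called 65 genes in all at an adjusted p under 0.05. The study's methods instead set a minimum fold change with an unadjusted p under 0.05. In this model Sox9 (−1.67, unadjusted p = 0.00999) and Sox6 (−1.95, unadjusted p = 0.0296) had values that meet that rule. Wwp2, Trps1 and Nkx3-2 had an unadjusted p under 0.05 with changes too small for it, and Sox5 had an unadjusted p of 0.142.

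The order of the 6 by length-adjusted level differed between the groups. In the WT libraries Wwp2 was highest (32.6 ± 0.106 TPM, SD, n = 2), followed by Sox9 (18.2 ± 3.08 TPM), Trps1 (8.75 ± 0.325 TPM), Sox6 (4.50 ± 1.03 TPM), Sox5 (2.56 ± 0.205 TPM) and Nkx3-2 (1.46 ± 0.106 TPM). No neighbours in that order overlapped over the 2 libraries. In the cKO libraries the order was Wwp2 (19.4 ± 0.247 TPM), Trps1 (7.03 ± 0.0283 TPM), Sox9 (4.97 ± 0.219 TPM), Sox5 (2.13 ± 0.156 TPM), Nkx3-2 (0.545 ± 0.163 TPM) and Sox6 (0.440 ± 0.396 TPM). Sox9 had moved below Trps1 and Sox6 below Sox5, while Nkx3-2 and Sox6 overlapped and had no clear order.

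Most cartilage matrix genes that SOX9, SOX5 and SOX6 are known to activate were called lower. Of 17 such genes in the table, 16 were tested, of which 15 were called lower and 0 higher, and their median log2 fold change was −5.45. Col2a1, the main collagen of cartilage, was at 2400 and 2200 CPM in the WT libraries and at 47.9 and 51.5 CPM in the cKO libraries (log2 fold change −5.53). Acan, the aggrecan core protein, was at 325 and 489 CPM against 1.11 and 0.628 CPM (−8.91, adjusted p = 1.59e-05). Hapln1, the link protein that ties aggrecan to hyaluronan, went from 129 and 167 CPM to 1.57 and 1.22 CPM (−6.75). Comp, a matrix protein of cartilage and tendon, went from 761 and 829 CPM to 20.5 and 17.9 CPM (−5.37), and Col11a1, a minor fibrillar collagen, from 627 and 650 CPM to 173 and 177 CPM (−1.87). Adjusted p was at most 1.13e-05 for Col2a1, Hapln1, Comp and Col11a1. The cartilage-specific genes Ucma and Lect1 (chondromodulin) were nearly undetected in the cKO libraries, with 0 and 1 counts of Ucma and 0 and 4 counts of Lect1, against 1189 and 2684 counts summed over the WT libraries. Matn3, a matrilin, was the tested gene of the list that was not called (−2.48, adjusted p = 0.0562). Matn1, another matrilin, had too few counts to be tested and went the other way. It had 6 counts in each WT library and 14 and 10 in the cKO libraries.

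Other regulators of chondrogenesis did not share 1 direction. Of 33 tested, 9 were called lower, 15 higher and 9 neither, with a median log2 fold change of 0.22. The most abundant, Ctnnb1 (β-catenin), was not called (−0.02, adjusted p = 0.843). Prrx1, a limb mesenchyme homeobox gene, rose from 146 and 134 CPM to 288 and 289 CPM (log2 fold change 1.05, adjusted p = 0.00015), and Gli2, an effector of Hedgehog signalling, from 2.99 and 2.19 CPM to 17.2 and 17.3 CPM (2.72, adjusted p = 0.000111). Zbtb20, Sox4 and the coactivator Ep300 rose by less, with log2 fold changes of 0.65, 0.52 and 0.47. Pax1, a paired-box factor of the sclerotome, fell from 27 and 25 counts to 1 and 0 counts.

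Within gene families, the regulators were not matched by all of their relatives. Of 7 other Sox genes tested, Sox4, Sox8 and Sox11 of the list above among them, 3 were called lower, 2 higher and 2 neither. Sox8, the closest relative of Sox9 together with Sox10, had 29 and 36 counts in the WT and 1 and 4 counts in the cKO libraries (log2 fold change −3.52, adjusted p = 0.00635), and Sox10 had 39 and 43 against 2 and 4 counts (−3.59, adjusted p = 0.00279). Sox13, which belongs to the SoxD group with Sox5 and Sox6, also fell (log2 fold change −1.38, adjusted p = 0.00577). Sox4 and Sox12, of the SoxC group, rose by 0.52 and 1.15 (adjusted p = 0.00212 and 0.00603), and Sox11 of the same group was not called (0.59, adjusted p = 0.0822). Of 8 other ubiquitin ligases of the NEDD4 family, relatives of Wwp2, 1 was called lower, 1 higher and 6 neither. These shares are near those over all genes tested (16.8% lower and 13.7% higher). Wwp1, its closest relative, was not called (0.52, adjusted p = 0.0594), nor were Nedd4 (−0.06), Smurf2 (0.08) and Itch (0.10). Hecw2 fell (−1.65, adjusted p = 0.00278) and Smurf1 rose (0.56, adjusted p = 0.00316). Of the GATA factors, to which Trps1 is related by its zinc finger, Gata2 (−0.94, adjusted p = 0.00518) and Gata3 (−1.69, adjusted p = 0.0125) fell, and Gata6 rose (2.35, adjusted p = 0.000523).

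Of 22 genes tested for signals that act upstream of these regulators, 8 were called lower, 4 higher and 10 neither, with a median log2 fold change of −0.09. Fgfr3, the fibroblast growth factor receptor of growth plate chondrocytes, was at 67.2 and 61.2 CPM in the WT and 3.34 and 3.17 CPM in the cKO libraries (log2 fold change −4.30). Grem1, a secreted inhibitor of bone morphogenetic proteins (BMPs), went from 268 and 383 CPM to 135 and 141 CPM (−1.24, adjusted p = 0.00242). The BMP ligands Bmp7 and Bmp6 rose, Bmp7 from 0.325 and 0.318 CPM to 7.43 and 7.72 CPM (4.54) and Bmp6 from 0.680 and 0.920 CPM to 9.74 and 9.51 CPM (3.59). Among the receptors, Bmpr2 was called lower (−0.54, adjusted p = 0.0148) and Bmpr1a was not called (0.18, adjusted p = 0.0941). Of the transforming growth factor β ligands, Tgfb2 was called lower (−0.47, adjusted p = 0.00556) and Tgfb1 was not (0.15, adjusted p = 0.108).

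**Figure D3:**
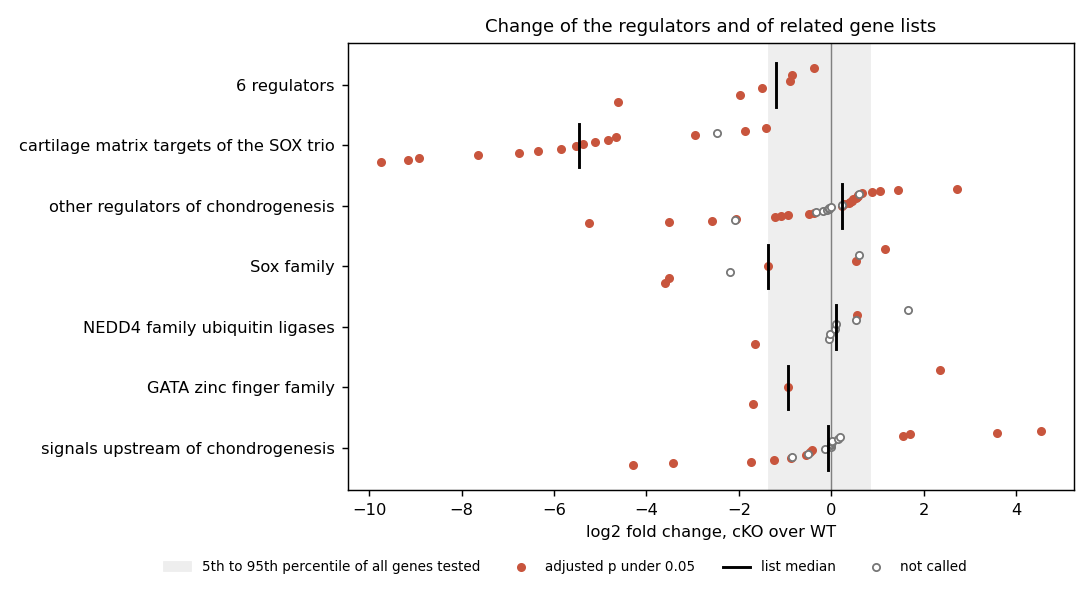
Log2 fold change of each tested gene, cKO over WT, for the 6 regulators and 6 lists of related genes. Filled red points are called, open points are not, and black lines are list medians. The grey band spans the 5th to 95th percentile of all genes tested (−1.35 to 0.84), below which all 16 tested cartilage matrix genes lie.

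Markers of several cell types moved with the regulators, and their part in the falls was not tested. Of 11 chondrocyte markers tested, 10 were called lower and 0 higher, and their summed level was 3960 and 4030 CPM in the WT libraries and 78.3 in both cKO libraries, a list that shares most of its genes with the matrix list above. Of 8 markers of hypertrophic chondrocytes 6 were called lower, and of 9 osteoblast markers 8 were called lower, with Alpl and Ibsp in both counts. The 12 marrow stromal markers, which stand for the labelled cell type, were all detected, with 6 called lower and 4 higher. Their summed levels of 1270 and 1120 CPM against 1260 and 1250 CPM hide opposite changes of single markers. Thy1 rose from 3.93 and 1.91 CPM to 74.7 and 69.4 CPM (log2 fold change 4.59, adjusted p = 7.34e-05). Nt5e fell from 12.3 CPM in both WT libraries to 2.85 and 2.04 CPM (−2.35, adjusted p = 0.000295). Macrophage markers summed to 20500 and 24700 CPM against 26800 and 27000 CPM, with 4 of 10 called higher and 0 lower. Of 4 markers of neural crest and glia tested, with Sox10 among them, 4 were called lower, at summed levels of 28.8 and 32.4 CPM against 4.50 and 4.49 CPM. Of 9 adipocyte markers 6 were called higher and 2 lower. Of 4 endothelial markers tested 3 were called higher (Vwf, Kdr and Emcn), and Cdh5 was not called (−1.16, adjusted p = 0.128). Pecam1, Tek and Tie1 had too few counts to be tested. Pecam1 had 9 and 7 counts in the WT and 4 and 4.62 in the cKO libraries, and Tek had 7 and 2 against 15 and 9. Neutrophil markers summed to at most 4.28 CPM and skeletal muscle markers to at most 9.32 CPM. Mpo, Ltf, Ngp and S100a9 of the former, and Myod1 and Myf5 of the latter, were at 0 in all libraries. In either list 1 of 2 tested was called lower. S100a8 had 92 and 96 counts in the WT and 19 and 12 in the cKO libraries (−2.43, adjusted p = 0.00475). Acta1 had 203 and 136 against 34 and 39 counts (−2.05, adjusted p = 0.00124).

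The genes nearest to each regulator in pattern were taken by the Euclidean distance of log2 CPM, centred per gene, over the 4 libraries and among 13301 genes. They were Hsd11b1 (distance 0.0188) and Ereg (0.0519) for Sox9, Pvr (0.056) and Fbxl16 (0.0678) for Sox5, and Serpina3n (0.0539) and Clu (0.0705) for Sox6. For Wwp2 they were Gnb4 (0.0312) and Itgbl1 (0.0324), for Trps1 Rps2 (0.00847) and Emc7 (0.00918), and for Nkx3-2 Zwilch (0.032) and Art3 (0.0811). None of the nearest genes was another of the 6, and with 4 libraries such a distance is a description of level differences only.

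In MSCs labelled wild type, 3 of the 6 regulators carried m6A peaks, 7 peaks in all. Sox9 and Wwp2 had 1 each, Trps1 had 5, and Sox5, Sox6 and Nkx3-2 had 0. Of 14118 tested genes that were found in the annotation, 42.0% had a peak. The list is 1 set for all 4 MeRIP samples, so a peak has no replicate error, and peak positions are on mm9 with annotation from GENCODE. The 4 letters GGAC, the core in which m6A is often found, occurred in all 7 peaks. The GGAC nearest to each summit is printed below as the sense strand, 5′ to 3′, with GGAC in capitals and 12 bases on either side, to show the letters and their surroundings in each peak, and none of these stretches reaches its summit.
Sox9 peak, chr11:112647074-112647101, plus strand: tcgtggccagacGGACagcactcctggc
Wwp2 peak, chr8:110081041-110081068, plus strand: cagaggccttggGGACcctttcttctct
Trps1 peak 1, chr15:50678253-50678280, minus strand: cagcggtaagaaGGACttgcaaatctca
Trps1 peak 2, chr15:50677812-50677839, minus strand: tccagagcttcaGGACtttaaatgcaat
Trps1 peak 3, chr15:50663223-50663250, minus strand: gggaaagtggcaGGACaaaatgacagtc
Trps1 peak 4, chr15:50653955-50653982, minus strand: aagataaaatctGGACtgagagttcaac
Trps1 peak 5, chr15:50492331-50492358, minus strand: catggtgacagtGGACctttccagtgca
A match to these letters is a description and not a mapped methylated base. GGAC was searched on the transcribed strand only, and 86.7% of all peaks within genes held it, at a median of 28 nt from the summit.

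The Sox9 peak (chr11:112646926-112647134, 209 bp) lay in the 3′ untranslated region (3′UTR) within the last of 3 exons, with its summit 217 nt after the first base of the stop codon. Its fold enrichment over the local background was 6.34, higher than that of 84.0% of all peaks, at a summit pileup of 27 fragments and a −log10 q of 12.6. It held 3 GGAC, the nearest 49 nt from the summit, and 76.2% of peaks of similar length held at least 1.

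The Wwp2 peak (chr8:110080764-110081169, 406 bp) spanned the stop codon in exon 24 of 24, and its summit lay 134 nt after it, in the 3′UTR. Its pileup of 89 was the highest of the 7, but its fold enrichment of 2.56 was the lowest and exceeded that of 13.1% of all peaks (−log10 q 11.5). It held 3 GGAC, the nearest 37 nt from the summit. The Mir140 hairpin lies 5805 bases before this summit on the genome and outside the peak.

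All 5 Trps1 peaks lay in coding sequence, and their summits were 3657, 3200, 2689, 1460 and 196 nt before the stop codon, in exons 2, 2, 3, 4 and 6 of 6. Their fold enrichments were 4.47, 5.10, 6.59, 5.72 and 6.09 in that order, all above the median of all peaks (4.03). The pileups were 33, 35, 60, 74 and 42, and the −log10 q values 10.2, 12.6, 27.2, 29.1 and 18.1. The nearest GGAC lay 34, 18, 41, 40 and 75 nt from the summits. The 3′UTR of Trps1, at 5914 nt longer than its coding sequence of 3843 nt, held 0 peaks. A count of 5 or more peaks was found in 129 genes, 2.18% of genes with a peak, whereas 3710 genes had 1.

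**Figure D4:**
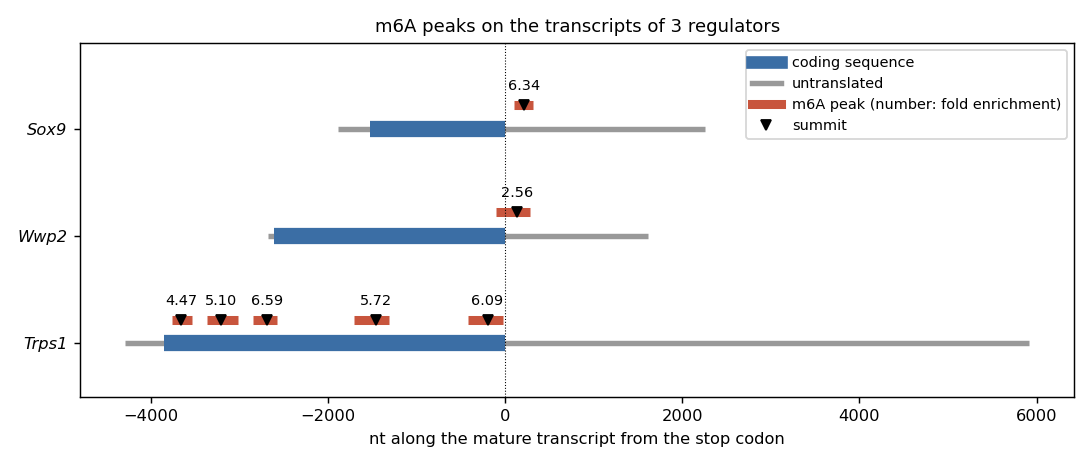
m6A peaks (red bars, triangles at summits, numbers giving fold enrichment) along the mature transcripts of Sox9, Wwp2 and Trps1, in nt from the stop codon, with coding sequence in blue and untranslated sequence in grey. The summits of Sox9 and Wwp2 lie after the stop codon and all 5 of Trps1 before it.

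Presence of the letters did not separate the regulators with peaks from those without. Sox5 had 27 GGAC in its mature transcript (3.73 per kb), Sox6 had 29 (3.52 per kb) and Nkx3-2 had 9 (5.22 per kb), with no peak in any of them. Sox9 had 15 (3.63 per kb) and Wwp2 had 28 (6.54 per kb), the latter a density above that of 86.1% of genes. Trps1, with the most peaks, had the lowest density, with 20 GGAC or 1.96 per kb, and only 6.86% of genes were lower. The median over 13482 genes was 4.26 per kb. Of the 20 in Trps1, 13 lay in coding sequence and 6 in the 3′UTR, and 9 fell within a peak.

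The regulators with a peak were also the 3 most abundant. Among tested genes found in the annotation, the share with a peak rose with the mean TPM of the WT libraries. It went from 16.9% under 1 TPM to 53.5% between 8 and 16 TPM, and was 38.8% from 64 TPM upward. Nkx3-2, Sox5 and Sox6 fell in bins where 29.1%, 37.5% and 47.1% of genes had a peak, and Trps1, Sox9 and Wwp2 in bins with 53.5%, 50.6% and 50.0%. Here 0 peaks means that none was detected, and the depth of the MeRIP libraries is not known from the list. The log2 fold changes of the 3 regulators with a peak were −0.37, −0.85 and −1.97 and those of the 3 without were −0.90, −1.50 and −4.62, ranges that overlap. Over the 14118 tested genes found in the annotation, 13.3% of those with a peak and 21.1% of those without were called lower. These 2 shares were not split by RNA level.

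**Figure D5:**
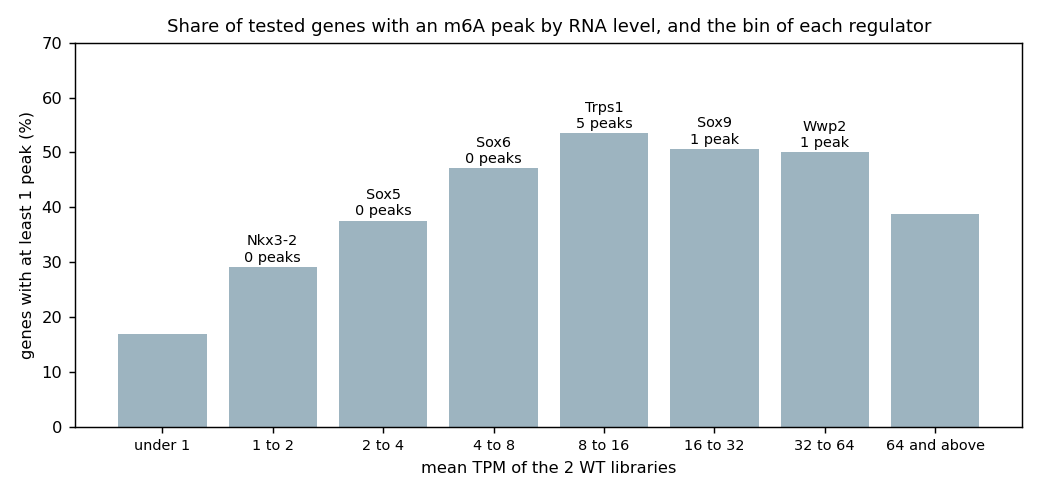
Share of tested genes found in the annotation with at least 1 m6A peak, by mean TPM of the WT libraries. Each regulator is named over the bin that holds it. The bins of Trps1, Sox9 and Wwp2, which had peaks, reach 50.0% to 53.5%, and those of Nkx3-2, Sox5 and Sox6, which had none, 29.1% to 47.1%.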

How the data were processed

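The authors deposited estimated counts per gene, unnormalized, and values headed FPKM that sum to nearly the same total per library (998193 to 998570 over named genes), as TPM do. They also deposited 1 list of m6A peaks with a pileup signal, a fold ratio over local background, and −log10 of p and q. Lengths and positions are not scaled. The study mapped RNA-seq reads by HISAT2 and used Ballgown for its own gene tests. The submitters' processing notes name HISAT2 2.0.4, TopHat and MACS2, and mm10 and mm9, without roles. Strand of counting and pooling of peaks are not given in the sources used here.

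Estimated counts were rounded, and 89 unnamed entries (0.110% to 0.125% of counts) were left out. Tests used edgeR 4.0.16 (glmQLFit and glmQLFTest) with TMM scaling on genes kept by filterByExpr. Intervals are 95%. Alternatives used DESeq2 1.42.0, limma 3.58.1 on log2(TPM + 0.1), least squares on log2(TPM + 1) (an ordinary linear model), other scaling and filters, a replicate block, and each library left out. Scripts were tested on simulated data. Of 10160 peak summits, 91.5% lay within genes placed by mm9 and 50.7% within the same 32799 genes placed by GRCm38, so mm9 was used for peaks.

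The members and lists were chosen with earlier results of these data known. Besides the 6 genes and Mettl3, each list contributed up to 5 tested genes with the highest mean CPM and up to 3 called genes with the largest change and at least 10 counts in every library of a group. For each member, the 2 genes nearest in pattern were named. Matn3, Matn1, Sox6os, Mir140 and the markers named for osteoblasts, marrow stromal cells, neutrophils, skeletal muscle and endothelial cells lie outside this rule. They were named after their values were seen. Families and marker lists came from textbook knowledge. A chi-square statistic between the 2 libraries of a group, with genes under 20 counts left out, came to 32.6 (WT) and 1.82 (cKO) times its expectation per gene.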

Additional observations from a re-analysis of the deposited data

How the results depend on the processing

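No alternative reversed the direction of any of the 6 regulators. An ordinary linear model on log2(TPM + 1) called 65 genes, 0 of the 6 regulators and 2 list genes, against 4677, 6 and 59 in the report. Limma on log2(TPM + 0.1) called 3221 genes, 1442 lower and 1779 higher, against 2577 lower and 2100 higher, with a median shift of 0.10 over all genes and 4 of the 6 regulators called. DESeq2 called 3642 genes and 5 of the 6. Leaving out 1 library gave 1867 to 8750 genes, 4 to 6 regulators and 46 to 72 list genes, and the lower counts came without a cKO library (1904 without replicate 1, 1867 without replicate 2) and the higher without a WT library (8750 and 7934). In an alternative chosen after seeing the data, both cKO libraries, which lay close together, were summed to 1 sample, and 2012 genes and 4 regulators were called, without Trps1 (adjusted p = 0.127) and Nkx3-2 (adjusted p = 0.078). With the replicate number as a block 4881 genes and all 6 regulators were called, though the numbers did not pair the libraries (correlation of replicate differences 0.0264 over 15327 genes). The 3 regulators with an m6A peak were the same count under 3 other peak settings. Counts of 11 to 58 per library limit Nkx3-2, and 15 and 20 counts limit Sox6 in the cKO libraries.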
